A study of Caenorhabditis elegans with 4 samples.

Results

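The right end of Caenorhabditis elegans chromosome V carried 446 of the 9436 nuclear ZIM-1 peaks of the series-wide list, or 4.73%. They are the peaks whose midpoint lies at or beyond base 17924001, in an interval of 3 Mb that makes up 14.3% of the chromosome and holds 26.3% of its peaks. The members were chosen by position alone, without regard to score or replicate. All coordinates are on WormBase release WS220, and the last base of V was taken as 20924172, the end of the last peak in any list.

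ZIM-1 belongs to a family of zinc finger proteins that act in meiosis, together with ZIM-2, ZIM-3 and HIM-8. Each binds the pairing centers of its own chromosomes, which are regions near 1 end of a chromosome that carry many copies of short sequence motifs. There the proteins recruit meiotic kinases and tie the chromosome to the nuclear envelope, so that homologs can find each other and begin synapsis. ZIM-1 is known for the pairing centers of II and III, ZIM-3 for those of I and IV, and HIM-8 for that of X. The pairing center of V lies at its right end, and its known protein is ZIM-2.

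ChIP-seq was carried out with SDQ3965, an affinity-purified rabbit polyclonal antibody raised against a stretch of ZIM-1. The worms were hermaphrodites of the strain fem-2(b245), genotype fem-2(b245)III, kept at 20 °C and labelled as germline-containing young adults, although the growth protocol describes harvest of gravid adults. All 4 libraries, 2 ZIM-1 ChIP and 2 input, share this genotype, temperature and stage. fem-2 is a gene of the sex determination pathway. Chromatin came from ground whole worms fixed in 1% formaldehyde for 10 min, so germline and somatic nuclei were mixed. Input values were not analysed here, and read depth is unknown. The labels do not tell whether each replicate was a separate culture, and differences between them can be technical.

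Peaks were denser at the right end of V than in the centre of that chromosome or at its left end. The series-wide list had 149 peaks per Mb there (95% counting interval 135 to 163). The centre of V, between both 3 Mb ends, had 69.7 (65.5 to 74.05), and the left end had 70.0 (60.9 to 80.1). Replicate 1 had 297 peaks at the right end, or 98.99 per Mb, against 42.01 in the centre and 35.3 at the left end. Replicate 2 had 140 peaks there, or 46.7 per Mb, against 21.6 and 15.7. In all 3 lists the right end was the densest of the 3 stretches of V, and its counting interval did not overlap those of the others. Peaks covered 6.75% of the sequence of the right end in the series-wide list, against 3.51% in the centre and 3.06% at the left end.

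Peak counts were compared in a quasi-Poisson regression over 1003 windows of 100 kb, in which the spread between windows sets the error. Windows are not replicate samples, so each replicate list was fitted on its own as well. Each of 12 chromosome ends of 3 Mb was set against the centre of its own chromosome. The right end of V had 2.13 times the density of the centre of V (95% interval 1.70 to 2.68; n = 30 and n = 149 windows; adjusted p = 4.02e-10 over the 12 ends). Over the same n = 30 windows the ratio was 2.36 in replicate 1 (1.87 to 2.98; adjusted p = 2.56e-12) and 2.16 in replicate 2 (1.58 to 2.94; adjusted p = 4.79e-06). The left end of V had a ratio of 1.00 (0.741 to 1.36; n = 30 windows; adjusted p = 0.977). Of the 12 ends, 7 passed as denser in the series-wide list (58.3%), 9 in replicate 1 (75%) and 5 in replicate 2 (41.7%), so a denser end was common.

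Set directly against the opposite end, the ratio of the right end was 2.12 times that of the left end of V (1.52 to 2.97; n = 30 windows each; adjusted p = 5.87e-05 over 5 such contrasts, same regression). With the same n = 30 windows it was 2.80 times as high in replicate 1 (adjusted p = 3.68e-07) and 2.98 times as high in replicate 2 (adjusted p = 0.000173). Against the left ends of II, III, IV and X, which carry the pairing centers of those chromosomes, no difference in ratio passed. These ratios are relative to each chromosome's own centre and do not compare the densities themselves. The series-wide list had 223 peaks per Mb (206 to 240) at the left end of III and 180 (165 to 195.5) at that of IV. At the left ends of II and X it had 153 and 86.0, and at the right end of V 149. The right end of V had 0.994 times the ratio of the left end of II (0.712 to 1.39) and 1.002 times that of III (0.735 to 1.37). It had 1.05 times that of IV (0.769 to 1.44) and 0.917 times that of X (0.621 to 1.35). In the replicate lists none of these contrasts passed either. Against III the value was 0.900 in replicate 1 and 0.724 in replicate 2, and against IV 1.22 and 1.15. Against II it was 0.910 and 0.872, and against X 0.941 and 0.835. No contrast was made with the ends of I, which also has a pairing center. Relative to the centre of I, the left end of I had a ratio of 1.33 (1.05 to 1.69) and the right end 1.18 (0.919 to 1.515). The comparison therefore does not cover the pairing centers of all chromosomes. A p that misses the threshold does not show these ends to be alike. The contrasts were chosen after the ratios were seen.

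**Figure D1:**
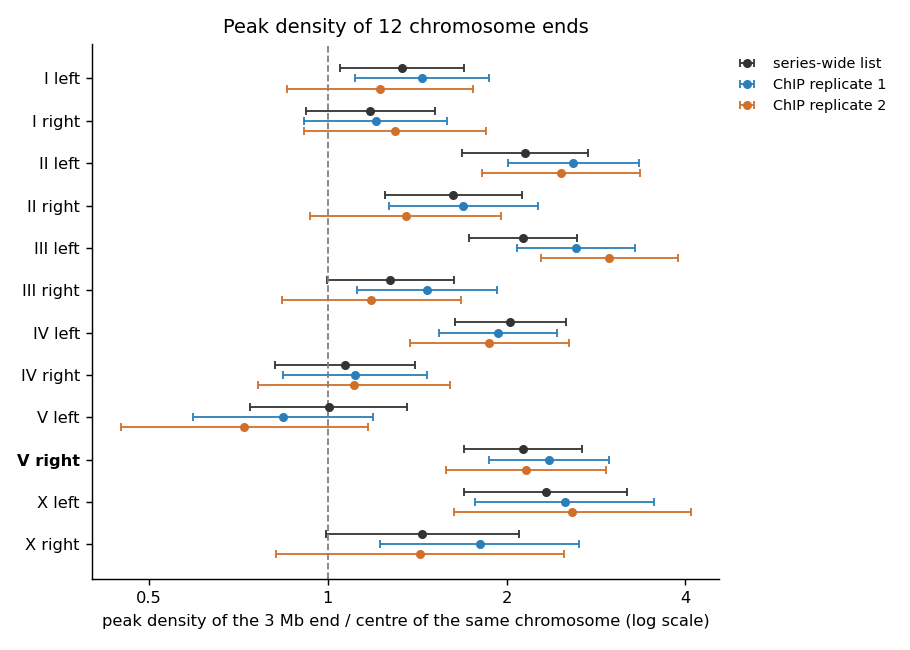
Peak density of each 3 Mb chromosome end relative to the centre of the same chromosome (x axis, log scale) for the series-wide list and both ChIP replicates; points are fitted ratios and bars their 95% intervals. The right end of V lies at 2.13, 2.36 and 2.16 in the 3 lists, beside the left ends of II, III, IV and X, while the left end of V lies at 1.00, 0.841 and 0.724.

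Most peaks of the right end lay in its inner 2 Mb. From 17924001 to 18924000 there were 170 peaks (145 to 198 per Mb), from 18924001 to 19924000 there were 190 (164 to 219), and from 19924001 to the end there were 86 (68.8 to 106). Replicate 1 had 117, 121 and 59 peaks in these stretches, and replicate 2 had 56, 64 and 20. Peaks found in both replicates numbered 51, 53 and 15. All 3 lists thus had their lowest count in the outermost Mb.

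In a fit with each stretch as its own term, the ratios to the centre of V were 2.44 (1.75 to 3.40) and 2.73 (1.99 to 3.74) for the inner stretches and 1.23 (0.788 to 1.93; adjusted p = 0.359) for the outermost, with n = 10 windows each. The inner stretches together were 2.09 times as dense as the outermost (1.29 to 3.38; n = 20 and n = 10 windows; p = 0.00263). With the same n = 10 outermost windows this contrast was 2.02 in replicate 1 (p = 0.00412) and 2.99 in replicate 2 (p = 0.00346). The split was made after the positions were seen. The outermost Mb also had the lowest median score, 6.31 against 10.3 and 11.3, and the smallest share of peaks found in both replicates, 17.4% against 30% and 27.9%.

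At the scale of 100 kb the peaks were spread unevenly over the windows. The median window held 12 peaks, against 6 in the centre of V and 7 over the nuclear genome. Of the 30 windows, 17 held more peaks than the 8.11 that the mean of V predicts, and 9 passed the test for an excess (exact Poisson test, Benjamini-Hochberg adjusted over 1003 windows), a share of 30% against 8.47% of all windows. In replicate 1 again 9 windows passed, against 4.69% of all windows, and 8 of these were among the 9. In replicate 2 it was 5 that passed, against 3.49% of all windows, and all 5 were among the 9. With peaks found in both replicates it was 4, against 2.59% of all windows. The centre of V had 9 such windows of 149. Peaks cluster more than a Poisson background allows. With a negative binomial background 0 of the 30 windows passed, 6 had an unadjusted p under 0.05, and 0% of all 1003 windows passed.

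The densest window, from 18024001 to 18124000, held 56 peaks, 6.91 times the 8.11 expected (adjusted p = 1.93e-25 by the exact Poisson test). With the negative binomial background, which allows for clustering, its adjusted p was 0.182 and it did not pass. Replicate 1 had 37 peaks there and replicate 2 had 17. The next, from 18924001 to 19024000, held 43 peaks, with 35 and 14 in the replicates. Its neighbour from 19024001 held 34, with 22 and 8. The window from 18524001 to 18624000 held 31, with 24 and 17, and that from 19824001 to 19924000 held 28, with 16 and 10. Replicate 2 had as many peaks from 18524001 as in the densest window, although the series-wide list had 25 fewer there. These 5 windows held 192 peaks, or 43.05% of the members, and 63 of the 119 members found in both replicates (52.9%). The other windows ranged down to 2 peaks. Across the 30 windows, peak counts in replicate 1 and replicate 2 had a rank correlation (Spearman rho) of 0.90. It was 0.63 over the 149 windows of the centre of V and 0.74 over all 1003 windows. These windows share libraries and neighbours, so the values are descriptive.

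**Figure D2:**
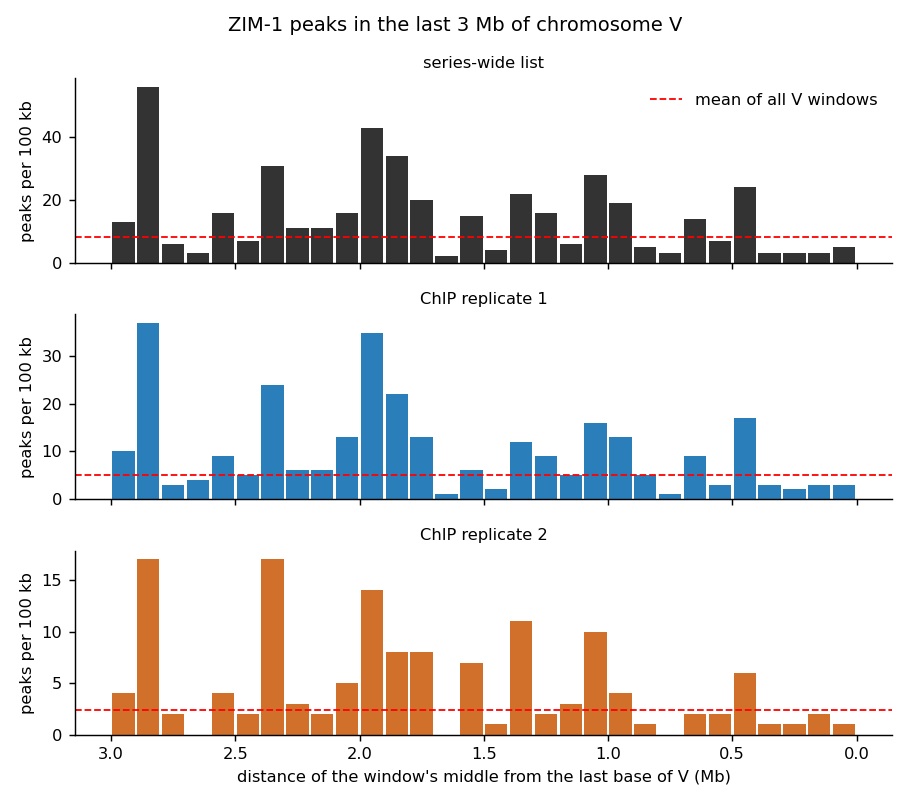
Peaks per 100 kb window (y axis) along the last 3 Mb of V, by distance of the window from the last base (x axis, Mb), in the series-wide list and both ChIP replicates; the dashed line is the mean of all V windows. The tallest series-wide bar is the window with 56 peaks, and its counterparts in the replicates hold 37 and 17.

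Neighbouring peaks lay close together. The median gap was 1725 bp at the right end of V, 3137 bp in the centre of V and 2446 bp over the nuclear genome, and 72.1% of gaps at the right end were at most 5 kb, against 55.7% in the centre. The median gap was 1209 bp at the left end of II, 1133 bp at that of III, 1769 bp at that of IV and 2277 bp at that of X. At most 5 kb separated 73.0%, 80.5%, 71.7% and 63.0% of neighbours there. Joined across gaps of up to 5 kb, the members formed 125 runs, of which 53 were single peaks. The 11 runs of at least 10 peaks held 175 members (39.2%). With a fixed gap limit a denser stretch forms longer runs, and runs were not compared with other regions. The longest run spanned 65.2 kb, from 18031651 to 18096897, with 43 peaks, of which 10 were found in both replicates. It met 28 peaks of replicate 1 and 11 of replicate 2. The next spanned 41.8 kb from 19915646 to 19957480 with 18 peaks, and the third in length spanned 26.2 kb from 19100150 to 19126399 with 10 peaks. The longest stretch without a peak was 119 kb, from the base after 18178504 to 18297179, less than 100 kb from the longest run. The next longest gaps, of 91.1 and 87.9 kb, ended at 20795339 and 20693981 in the outermost Mb.

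The members with the 2 highest scores stood in the longest run. The peak from 18075307 to 18081409 had the highest score of the list, 174.44, and with 6103 bp it was the widest member. It met replicate 1 and replicate 2 peaks that both scored 3100, a value at which many high scores of those lists are tied and which few peaks exceed. The peak just before it, from 18073712 to 18074568, scored 158.33 and met peaks of 2137.8 and 2397.78. In the same run the peak from 18061337 to 18066285, 4949 bp wide, scored 128.21 and met a replicate 2 peak of 4299 bp scoring 3100. Replicate 1 covered that stretch with separate peaks of 2075 and 2526 bp, both at 3100. The peak from 18052961 to 18055062 scored 130.96, with 3082.32 and 2024.35 in the replicates. Of the 15 highest-scoring members found in both replicates, 4 lay in this run.

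The other 11 of these sites were at most 1198 bp wide. The peaks from 18541729 to 18542714 and from 18573066 to 18573984 both scored 142.13. The first met peaks of 3100 and 2540.17, and the second met peaks of 3160.17 and 2483.09. The peak from 18990141 to 18990842 scored 136.53, with 1631.88 and 864.62 in the replicates. Farther out, 3 neighbouring peaks from 19915646 to 19919388 scored 114.66, 117.33 and 112. Their replicate 1 scores were 1416.7, 1956.76 and 1753.55, and their replicate 2 scores were 804.16, 1317.56 and 1309.49. The peak from 18618786 to 18619841 scored 110.41 and met peaks scoring 3100 in both replicates. The site at 18609800, 288 bp wide, was the narrowest of the 15 and had the weakest replicate 2 peak, at 318.64.

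Among the 15, 2 sites lay within 0.5 Mb of the end of V. One spanned 20580359 to 20580933 with a score of 125.47, 344 kb from the last base, and met peaks of 1069.45 and 978.54. The other spanned 20479024 to 20479636 with a score of 107.74 and met peaks of 738 and 603.07. At the very end, the last member ran from 20923823 to 20924172 and scored 20.54. It was the highest-scoring member found in neither replicate, and 53.3 kb without a peak separated it from its neighbour.

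**Figure D3:**
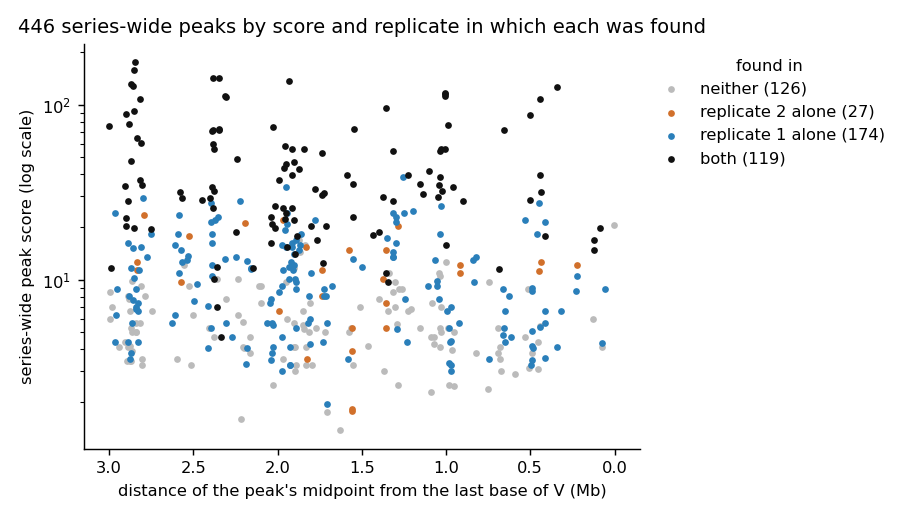
Score of each of the 446 series-wide peaks at the right end of V (y axis, log scale) by distance from the last base (x axis, Mb), coloured by the replicate lists in which each was found. Peaks found in both replicates (119, black) hold the highest scores, and peaks found in neither (126, grey) reach 20.54 at most.

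Compared with the centre of V, the right end had a larger share of peaks in the highest-scoring 25% of the list, but not in the narrower top classes. Its median series-wide score was 9.84, against 7.74 in the centre of V, 6.50 at the left end and 7.86 over the nuclear genome. The highest-scoring 25% of nuclear peaks, those at or above 17.49, made up 137 members or 30.7% (26.5 to 35.2), against 22.2% in the centre (19.7 to 24.9). The highest-scoring 10%, at or above 54.75, made up 40 members or 8.97% (6.48 to 12.01), against 8.85% in the centre. The highest-scoring 5%, at or above 100.75, made up 15 members or 3.36% (1.89 to 5.49), against 5.19% in the centre. Only 1 member of 446 had the tied highest score of 174.44 (0.224%, 0.00568 to 1.24). The centre of V had 17 such peaks among 1040 (1.63%, 0.955 to 2.60). Over the nuclear genome it was 78 of 9436 (0.827%), a share that lies inside the interval of the right end of V.

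These shares were tested in a quasi-binomial regression over the same windows, chosen after the scores were seen. The odds that a peak was in the highest-scoring 25% were 1.55 times those in the centre of V (1.17 to 2.07; n = 30 windows; adjusted p = 0.0100), and 3 of 12 ends passed as higher (25%). For the highest-scoring 10% the odds ratio was 1.02 (0.661 to 1.56; n = 30 windows; adjusted p = 0.945), where 16.7% of ends passed as higher. For the highest-scoring 5% it was 0.636 (0.336 to 1.20; n = 30 windows; adjusted p = 0.325), where 8.33% of ends passed. The excess at the right end of V therefore passed for the broadest of these classes and not for the narrower ones.

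The left ends of II and III, the ends with the known ZIM-1 pairing centers, had larger shares of strong peaks. The highest-scoring 10% made up 19.8% of the 460 peaks at the left end of II and 19.9% of the 668 at that of III. Relative to its own centre, the odds at the right end of V were 0.410 times those at the left end of II (0.230 to 0.730; n = 30 windows per end; adjusted p = 0.0124 over 5 contrasts) and 0.470 times those at III (0.274 to 0.806; adjusted p = 0.0151). Against the left ends of IV, with 6.68%, and X, with 7.36%, the odds over n = 30 windows per end were 1.58 times (0.856 to 2.91; adjusted p = 0.179) and 0.749 times (0.333 to 1.69; adjusted p = 0.485). For the highest-scoring 25%, the right end of V had 1.63 times the odds of the left end of IV (1.09 to 2.46; n = 30 windows per end; adjusted p = 0.0309) and 0.625 times those of III (0.426 to 0.916; adjusted p = 0.0309). Against the left end of II it had 0.887 times (0.589 to 1.34; n = 30 windows per end; adjusted p = 0.708).

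**Figure D4:**
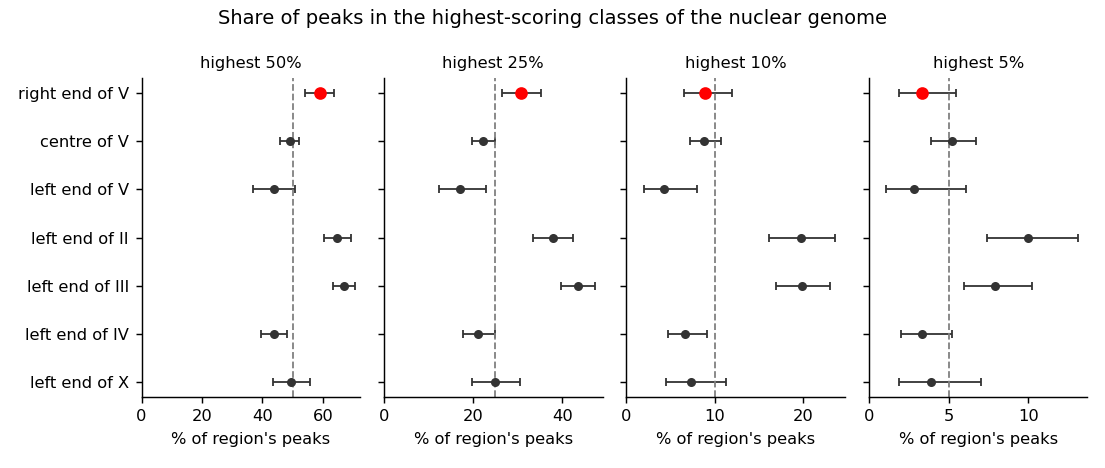
Share of the peaks of each region (x axis, percent) that belong to the highest-scoring 50%, 25%, 10% and 5% of nuclear series-wide peaks, with exact 95% intervals; the right end of V is red and the dashed line is the share over the nuclear genome. The red point stands above the line for the highest 50% and 25% and falls to 8.97% and 3.36% for the highest 10% and 5%.

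The replicate lists were examined for their own strongest peaks. Scores of at least 3100 were reached by 7 of the 297 replicate 1 peaks at the right end of V (2.36%, 0.953 to 4.80), against 34 of 627 in the centre (5.42%). In replicate 2 it was 3 of 140 (2.14%, 0.444 to 6.14) against 35 of 323 (10.8%). Over the nuclear genome the shares were 4.25% in replicate 1 and 7.9% in replicate 2, both below those in the centre of V. At the left ends of V and IV they were 2.83% and 2.54% in replicate 1, and 8.51% and 6.12% in replicate 2. At the left ends of II, III and X they were 9.55%, 6.68% and 7.33% in replicate 1, and 13.4%, 8.01% and 14.9% in replicate 2. The odds ratio of the right end of V to the centre of V was 0.421 in replicate 1 (0.170 to 1.05; n = 30 windows; adjusted p = 0.187, where 0% of ends passed as lower). It was 0.180 in replicate 2 (0.0492 to 0.661; n = 30 windows; adjusted p = 0.0389, where 8.33% passed as lower). The replicate 2 value rests on 3 peaks and missed the threshold with windows of 500 kb. Of the 7 replicate 1 peaks, 6 lay in the first Mb of the interval, and the other began at 19933115.

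The replicates shared most of the shorter list. Of the 140 replicate 2 peaks at the right end of V, 119 overlapped a replicate 1 peak by at least 1 bp (85%, 78.0 to 90.5). The share was 83.0% in the centre of V and 84.2% over the nuclear genome. Of the 297 replicate 1 peaks, 122 overlapped a replicate 2 peak (41.1%, 35.4 to 46.9), against 43.7% in the centre and 43.9% over the nuclear genome. Shared replicate 1 peaks had a median score of 420 and a median width of 680 bp, and unshared ones 107 and 407 bp. With replicate 1 peaks put in 4 classes of rising score, 9 of 75, 13 of 74, 41 of 74 and 59 of 74 were found in replicate 2. With replicate 2 peaks put in 4 such classes, 25, 28, 32 and 34 of 35 were found in replicate 1. The share rose with score in both lists.

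Replicate 1 and replicate 2 scores of the 119 overlapping pairs had a Spearman rho of 0.60, or 0.52 over the 112 pairs below 3100 in both. The value for all 2429 nuclear pairs was 0.72, or 0.65 over the 2146 pairs below 3100 in both. Pairs share libraries and some replicate 1 peaks recur, so these are descriptions.

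**Figure D5:**
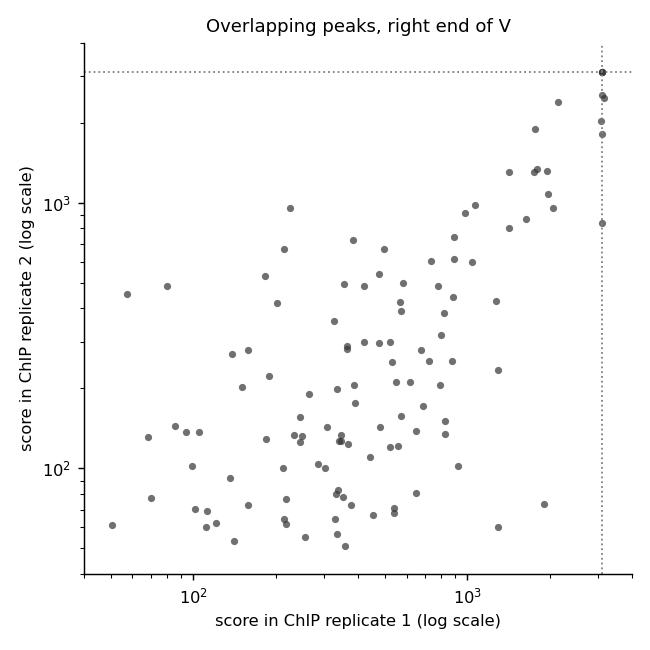
Scores of the 119 overlapping peak pairs at the right end of V in ChIP replicate 1 (x axis) and ChIP replicate 2 (y axis), both on log scales; dotted lines mark 3100, where high scores are tied. Scores rose together with wide scatter (rho 0.60), and 3 pairs sit at the crossing of the lines.

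Of the 446 members, 119 were found in both replicates (26.7%, 22.6 to 31.04) and 126 in neither (28.3%, 24.1 to 32.7). Over all nuclear peaks these shares were 25.9% and 35.6%. Replicate 1 alone accounted for 174 (39.01%) and replicate 2 alone for 27 (6.05%), against 33.2% and 5.32% of nuclear peaks. In the order both, neither, replicate 1 alone, replicate 2 alone, median scores were 34.4, 5.29, 8.88 and 11.3, and median widths 632, 188.5, 302.5 and 228 bp. The strongest member found in replicate 1 alone, from 19670456 to 19670696, scored 38.43. That found in replicate 2 alone, from 18130242 to 18130461, scored 23.52. The share found in both was 26.2% in the centre of V and 17.1% at the left end. It was 36.3% at the left end of II, 37.9% at that of III, 21.9% at that of IV and 24.8% at that of X. The odds at the right end of V were 1.03 times those of the centre of V (0.769 to 1.37; n = 30 windows; adjusted p = 0.854), and 8.33% of ends passed as higher. Against the left end of V they were 1.76 times as high (1.09 to 2.84; n = 30 windows each), with an adjusted p of 0.0524 in the quasi-binomial fit. Each relative to its own centre, they were 0.632 times those at the left end of III (0.430 to 0.929), with the same adjusted p. Against the left ends of II, IV and X they were 0.735 (0.487 to 1.11), 1.14 (0.760 to 1.72) and 0.750 times (0.448 to 1.255). None of these contrasts passed.

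Widths at the right end of V ran from 146 to 6103 bp with a median of 293 bp, against 300.5 bp in the centre of V and 288 bp over the nuclear genome. In all, 39 members were wider than 1 kb (8.74%, against 8.68% of nuclear peaks) and 5 were wider than 2 kb. At the limit of the interval, the first member, from 17924103 to 17924837, scored 75.11 and was found in both replicates, and the second, from 17930688, scored 5.98 and was found in neither. Just outside, the peak from 17921440 to 17921668 scored 18.78 and that from 17913967 scored 6.33.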

How the data were processed

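The 3 deposited lists, 1 for each ChIP replicate and 1 series-wide, hold peak positions on WS220 with a score for each, per the file headers. The score is the authors' own value from their peak caller; its quantity is not stated, so scores were compared only within a list, apart from rank correlations of overlapping replicate peaks; scores of 1 site in several lists are given side by side without comparison. As peak caller, the deposited files name MACS for the replicates and MACS v2 for the series. The submitters' processing notes name BWA and the build ce10, the UCSC name of WS220. Whether the series-wide list came from pooled reads, the control and the settings are not given in the sources used here. Read depth is unknown; intervals on shares (exact Clopper-Pearson) and densities (exact Poisson) are at 95%, count peaks as independent and cover only counting error.

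Peaks were assigned by midpoint. Each nuclear chromosome was divided into 2 ends of 3 Mb and a centre and tiled in windows of 100 kb, with lengths from the last peak in any list. Peak counts were fitted by quasi-Poisson regression and shares by quasi-binomial regression, with 1 term per chromosome and per end, the Pearson dispersion and Wald tests, with Benjamini-Hochberg adjustment across all 12 ends. The threshold was an adjusted p of 0.05. Residuals of neighbouring windows had a correlation of 0.105, so the windows were not wholly independent. Fits were made with statsmodels 0.14.6 in Python 3.11.15, tests with scipy 1.17.1, tables with pandas 2.3.3 and numpy 2.4.6 and figures with matplotlib 3.10.9. The fits were tested on simulated data. The simulated windows were drawn independently, so these trials do not cover the correlation between neighbours. Named sites were the 15 highest-scoring members found in both replicates (ties by width), the widest, the highest-scoring member of each other class, the first and last, the 5 densest windows, and the 3 longest runs and gaps. The members, lists and tests were chosen with earlier results of these data known. Genes and sequences at the peaks were not analysed here, since no gene table or genome sequence of WS220 was at hand. The antibody's antigen was not compared with other proteins.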

Additional observations from a re-analysis of the deposited data

How the results depend on the processing

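No paired analysis was possible because the input group, which shares the replicate numbers, has no values here. The density ratio of 2.13 kept its direction and its side of the threshold in 12 of 13 alternatives. These ranged from 1.82 over the last 2 Mb to 2.57 with only higher-scoring peaks (50% of the list). Among them, windows of 50, 200 or 500 kb could not move the ratio, only its interval and p. The negative binomial fit, with the same terms, also gave 2.13, so the direction was not put to a test in these alternatives. For an end of 1 Mb the density ratio fell to 1.05 (n = 10 windows; adjusted p = 0.867); this end leaves out the dense inner stretches, and the centre it is set against then includes them; against the centre as first defined the same Mb had 1.23. Requiring an overlap of 50% of each peak left 22.0% of members found in both replicates, and taking the higher-scoring 50% of each list left 21.7%. The share of replicate 2 peaks found in replicate 1 was 70% with the stricter overlap and 73.6% with equal numbers of peaks. The 9 dense windows became 5 with replicate 2, 4 with peaks found in both replicates, 14 of the more numerous 50 kb windows and 0 against the negative binomial background. The odds ratio of 1.02 for the highest-scoring 10% became 1.55 for the highest-scoring 25%, which passed. The contrast with the left end of II became 0.887 in that class and no longer passed. The odds ratio of 0.180 for replicate 2 scores of at least 3100 cannot move with window size, and with 500 kb windows it no longer passed. The cause of these moves was not tested where none is named. Over the last 2 Mb the odds ratios of the share found in both and of the highest-scoring 10% lay below 1, at 0.927 and 0.707, against 1.03 and 1.02 over 3 Mb, and none of these passed. With read depth unknown, a peak missing from 1 list cannot be read as absence.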
